A study of Mus musculus with 8 samples.

Results

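The collagen genes were followed in sorted NIH3T3 cells, a line of mouse embryonic fibroblasts. The members are all rows of the deposited value table whose single platform gene symbol has the form Col, number, a, number. This rule found 82 probe sets of 45037, which stand for 42 genes of 18193. There were 11 fibrillar genes with 21 probe sets, 6 basement membrane genes (type IV collagen) with 12, and 25 other collagen genes with 49. The cells of both groups carried an mVenus-p27K- reporter and an mCherry-hCdt1(30/120) reporter, had been kept without serum and then spent 5 hours in 10% serum. In G1 cells mVenus was absent and mCherry present, and in G0 cells both were present. Each group was measured on 4 Affymetrix arrays. The sources used here do not say whether the reporter line was a clone or whether replicates came from separate cultures. The p-values therefore reflect the spread among these arrays alone, which may be technical.

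Collagens are secreted proteins in which chains with glycine at regular positions wind into a triple helix. Fibrillar collagens, mainly types I and III in fibroblasts, assemble outside the cell into the cables that give connective tissue its strength. Type IV collagen forms the mesh of basement membranes, and the remaining types decorate fibrils, link cells to matrix or sit in the cell membrane. Fibroblasts are a main source of type I and type III collagen, and collagen synthesis is known to vary with growth state and serum.

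The values are log2 expression of each probe set relative to its own median over the 8 arrays, with the log base taken as 2. Differences between arrays are measured, but levels are not, so these data do not show which collagens the cells expressed. For the same reason the fibroblast identity could not be checked by level. Of 10 fibroblast markers 0 passed the test between the groups, with a median difference of -0.19. The same held for the markers of cartilage (0.70), muscle (-0.15), epithelium (0.44), endothelium (0.21), leukocytes (0.08) and fat (0.03), in which 0 genes passed. At an unadjusted p under 0.05 in limma, 5 of all 53 measured markers differed, or 9.43% against 8.07% of all genes, and these were Hapln1, Cnmd, Pecam1, Adgre1 and Lyz2. RNA was measured in bulk, so fewer cells with a transcript and less of it per cell cannot be told apart.

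The spike-ins of 2 arrays did not follow the labelled batches. Bacterial spike-in transcripts, added to RNA before labelling, read far lower on G1 replicate 4 and G0 replicate 3, called here the arrays without spike-ins. There the mean of 24 spike-in probe sets was between -6.66 and -6.39, against -0.17 to 0.60 on the other 6 arrays. The labels' protocols set replicate 4 of each group apart instead, with kit protocol revision 3 against revision 8 for replicates 1 to 3. Replicates 1 to 3 are called labelled batch 1 and replicate 4 labelled batch 2. Whether the titles of G0 replicates 3 and 4 were exchanged was not tested. If they were, the labelled batch would be the spike-in batch, so results from the labelled batch and from replicate numbers rest on the titles as given. The fit below uses the labelled batch as covariate, and each main result is also given from a fit whose covariate was the spike-in batch instead (the spike-in fit), and from the 6 arrays with spike-ins alone. On the same 2 arrays the 5′ probe set of the beta-actin gene Actb stood 0.78 above its 3′ probe set, against -0.19 to 0.12 on the other 6. The part of labelling in the differences between groups was not tested beyond these fits.

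No collagen probe set differed between G1 and G0 past the threshold. In limma, 0 of 82 probe sets had an adjusted p under 0.05, against 0.4% of all probe sets tested. The count was also 0 in the spike-in fit, against 0.788%, and on the 6 arrays, against 0.0977%. At an unadjusted p under 0.05 in limma, 4 of the 82 lay lower in G1, against 3.59% of all probe sets, and 0 higher, against 3.71%. The values below are therefore descriptions of how each collagen lay in the 2 groups, with intervals that show what sizes the arrays leave possible.

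Taking 1 probe set per gene, 3 of 42 genes were lower in G1 at an unadjusted p under 0.05, which is 7.14% of the collagens against 3.74% of all genes. They were Col3a1, Col17a1 and Col4a3. In the opposite direction there were 0, against 4.33% of all genes. In the spike-in fit 6 genes were lower, against 6.37% of all genes, and the 6 arrays gave 7 lower, against 4.39%. The count lower was 5 without G1 replicate 4 and 5 without G0 replicate 3, but the shares of all genes in these fits were not computed. In the spike-in fit 1 gene, Col20a1, was higher at that p, against 6.04% of all genes. Its product is a fibril-associated collagen. Its probe sets did not share a direction, with differences of 0.98 on the one that stands for the gene and of 0.14, -0.55 and -0.70 on the others (labelled batch, intervals all including 0).

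More collagens had a negative than a positive difference. Of the 42 genes, 33 lay lower in G1, or 78.6%, against 55.3% of all genes, with a median log2 difference of -0.27 for the collagens and -0.06 for all genes. The counts differed between the arrays with and without spike-ins and between the labelled batches. On the 6 arrays with spike-ins 37 of 42 differences were negative (all genes, 55.9%), and between the arrays without spike-ins 21 were (all genes, 51.1%). Within labelled batch 1 the count was 33 (all genes, 58.1%), and within labelled batch 2 it was 18 (all genes, 43.3%). The arrays without spike-ins and labelled batch 2 each hold 1 array per group, so each gives a value and no test.

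**Figure D1:**
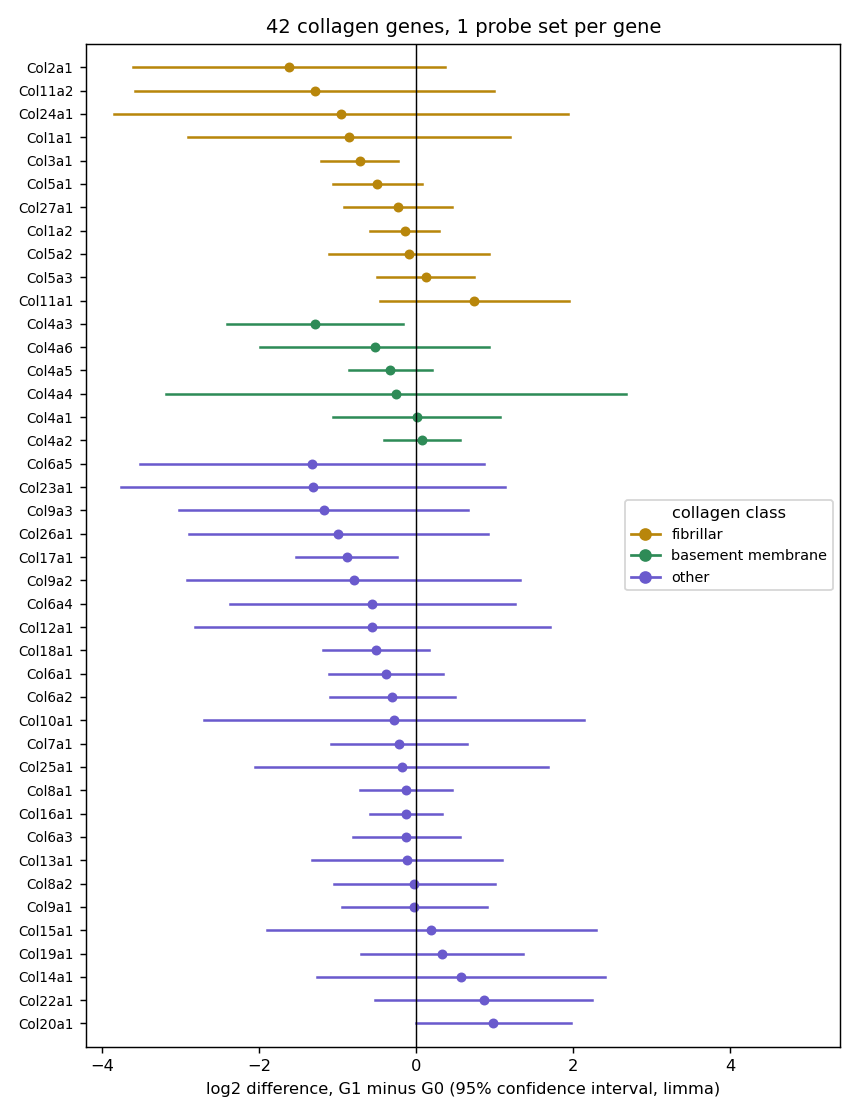
The log2 difference, G1 minus G0, of 42 collagen genes (points) with its 95% confidence interval from limma (lines), 1 probe set per gene, coloured by class and ordered within each class. The intervals of Col3a1, Col4a3 and Col17a1 lie below 0, and the other 39 include 0.

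Type III collagen, which forms thin fibrils together with type I, is a single-chain type encoded by Col3a1. Its probe set 1427884_at read -0.48, -0.73, -0.29 and -0.12 on G1 replicates 1 to 4, and 0.12, 0.20, 0.41 and 0.51 on G0 replicates 1 to 4. All G1 arrays lay below all G0 arrays. The means were -0.41 ± 0.26 in G1 and 0.31 ± 0.18 in G0 (SD, n = 4 each), a log2 difference of -0.72 or 1.64-fold lower in G1 (SE 0.21, 95% interval -1.21 to -0.23, limma, unadjusted p = 0.0103, adjusted p = 0.432). It was -0.74 and -0.64 within labelled batches 1 and 2, and -0.78 and -0.53 within the arrays with and without spike-ins. The adjusted p was 0.199 in the spike-in fit and 0.494 on the 6 arrays, and between 0.199 and 0.702 over all alternatives.

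The other probe set of Col3a1, 1427883_a_at, had -0.19, -0.03, -0.09 and -0.27 in G1 and 0.03, 0.72, 0.08 and 0.53 in G0. These groups did not overlap either, although 2 of the G0 arrays, replicates 1 and 3, came close to the G1 values. The difference was -0.48 (SE 0.23, 95% interval -1.03 to 0.06, limma, adjusted p = 0.744). Of 82 collagen probe sets 3 separated the groups with G1 lower, against 2.9% of all probe sets, and 0 did with G1 higher, against 3.16%. By genes the count was 1 of 42 with G1 lower, against 3.28%, and 0 with G1 higher, against 3.79%.

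Type I collagen, the main protein of tendon, bone and skin, is built from the products of Col1a1 and Col1a2. The third separating probe set was 1455494_at of Col1a1. It read -0.10, -0.08, -0.20 and -0.64 on the G1 arrays and 0.93, 0.61, 0.08 and 0.47 on the G0 arrays. The G1 mean was -0.25 ± 0.26 and the G0 mean 0.52 ± 0.35 (SD, n = 4 each), a difference of -0.78 or 1.71-fold lower in G1 (SE 0.24, 95% interval -1.35 to -0.20, limma, unadjusted p = 0.0147, adjusted p = 0.499). In the spike-in fit the adjusted p was 0.0972, and on the 6 arrays the difference was -0.80 (adjusted p = 0.386). Over all alternatives the adjusted p ran from 0.0972 to 0.804. Within labelled batches 1 and 2 it was -0.67 and -1.11, and within the arrays with and without spike-ins -0.80 and -0.72.

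The second probe set of Col1a1, 1423669_at, stands for the gene under the rule used for gene counts, and it differed between the arrays without and with spike-ins. It had -0.68, -1.34, -0.79 and 2.18 on the G1 arrays and 0.04, 0.22, 2.59 and -0.04 on the G0 arrays. Both high values came from the arrays without spike-ins, which lay 7.05-fold above the rest in limma with group in the model (log2 difference 2.82, adjusted p = 0.017). The G1 minus G0 difference was -0.86 with an interval of -2.91 to 1.19 (limma, adjusted p = 0.916). Its interval in the spike-in fit was -1.37 to -0.35 (unadjusted p = 0.00544, adjusted p = 0.201), and on the 6 arrays the difference was -1.01 (adjusted p = 0.565). Over all alternatives the adjusted p ran from 0.201 to 0.999.

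Col1a2 did not show a difference of that size on its quietest probe set. Probe set 1423110_at read -0.16, -0.08, -0.13 and 0.13 in G1 and 0.03, 0.17, 0.16 and -0.03 in G0, and the groups overlapped only through G1 replicate 4. The difference was -0.14 (SE 0.19, 95% interval -0.58 to 0.30, limma, adjusted p = 0.946). This interval overlapped that of Col1a1 (1455494_at, -1.35 to -0.20). A further set, 1450857_a_at, differed by -0.02 (interval -0.49 to 0.45). The remaining one, 1446326_at, scattered more and differed by -0.92 (interval -2.23 to 0.38). Whether Col1a1 and Col1a2 differed from each other in their response was not tested.

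**Figure D2:**
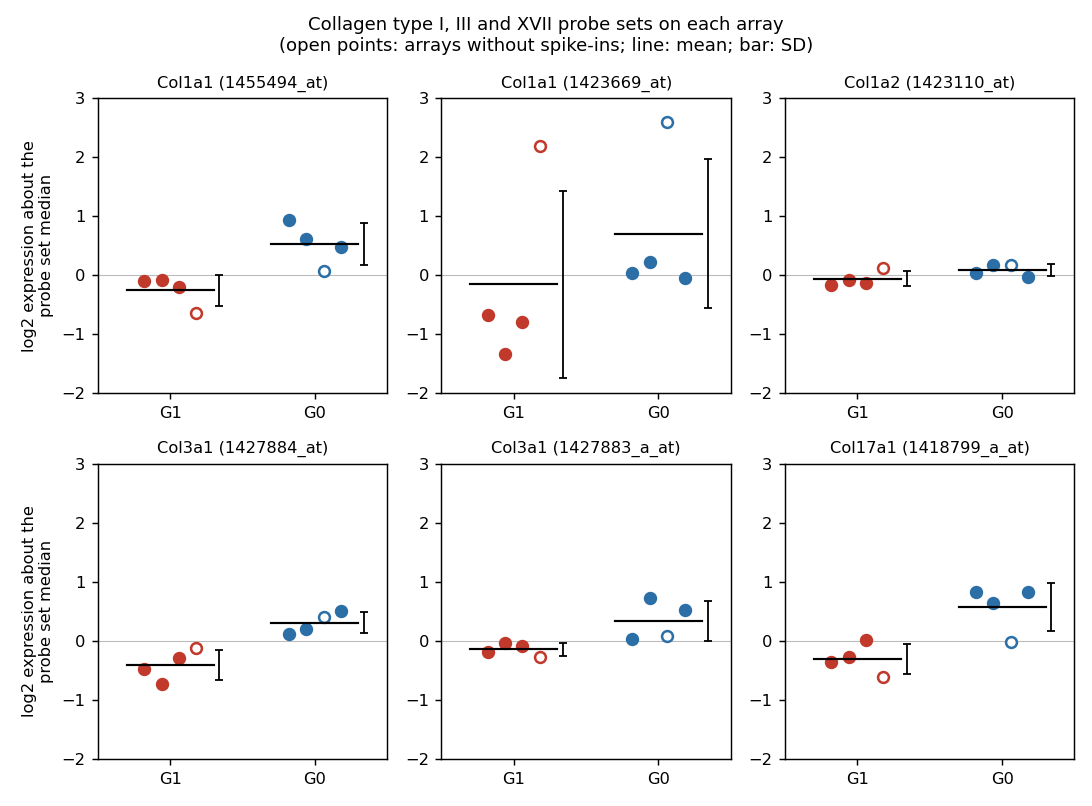
Log2 expression about the probe set median (vertical axis) on each G1 array and each G0 array for 6 probe sets of Col1a1, Col1a2, Col3a1 and Col17a1, with the mean as a line and the SD as a bar. In Col1a1 (1455494_at) and both Col3a1 panels the G1 points lie below the G0 points, and in Col1a1 (1423669_at) the open points, the arrays without spike-ins, stand apart at 2.18 and 2.59.

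The promoters of Col3a1 and Col1a2 are shown because these genes encode chains of co-assembling fibrils, and no difference between the genes was tested. They come from RefSeq on GRCm38.p6, run from 250 bases before to 50 after the annotated start, and are both on the plus strand, at chr1:45311288-45311587 and chr6:4505368-4505667. Capitals mark matches, on either strand, to the CCAAT motif, the GGGCGG motif and the TATAAA motif, none of which overlap.
Col3a1: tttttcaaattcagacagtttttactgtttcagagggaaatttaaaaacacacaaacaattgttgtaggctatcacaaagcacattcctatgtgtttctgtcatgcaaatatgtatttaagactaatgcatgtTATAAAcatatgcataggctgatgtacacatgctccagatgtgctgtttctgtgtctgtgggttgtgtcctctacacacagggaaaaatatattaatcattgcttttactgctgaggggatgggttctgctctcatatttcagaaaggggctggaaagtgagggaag
Col1a2: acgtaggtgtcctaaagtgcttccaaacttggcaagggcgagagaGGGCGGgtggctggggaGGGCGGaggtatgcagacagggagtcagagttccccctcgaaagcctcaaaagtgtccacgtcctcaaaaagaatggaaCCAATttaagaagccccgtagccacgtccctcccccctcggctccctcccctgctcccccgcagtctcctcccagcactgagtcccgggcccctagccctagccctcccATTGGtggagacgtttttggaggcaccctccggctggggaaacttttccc
The Col3a1 window held 1 TATAAA match, at position -117 with the annotated start as 0. The Col1a2 window held CCAAT matches at -109 and, on the opposite strand, at 0, and GGGCGG matches at -205 and -188. Among 32851 promoter windows of the same length, 13.6% held TATAAA, 37.4% CCAAT and 35.7% GGGCGG. In the 36 windows found for 33 of the collagen genes the shares were 13.9%, 36.1% and 61.1%. A match describes the letters only and says nothing of binding.

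Type V collagen sits inside type I fibrils and limits their width. For its Col5a1 chain, probe set 1416740_at read -0.47, 0.03, -0.03 and -0.29 in G1 and 0.52, 0.46, -0.16 and 0.38 in G0. The groups overlapped only through G0 replicate 3, one of the arrays without spike-ins. The difference was -0.49 (SE 0.24, 95% interval -1.06 to 0.08, limma, adjusted p = 0.758). It was -0.61 on the 6 arrays (unadjusted p = 0.0212, adjusted p = 0.535), within a range of 0.367 to 0.946 over all alternatives. The other sets of Col5a1 differed by -0.26 (1434479_at) and -0.05 (1416741_at), and the last of these stood 2.89 higher on the arrays without spike-ins (limma, adjusted p = 0.082).

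For the partner chain Col5a2, probe set 1422437_at read -0.55, 0.30, 0.40 and -0.87 in G1 and -0.30, 0.40, -0.82 and 0.35 in G0. These groups overlapped throughout, with a difference of -0.09 (interval -1.11 to 0.93) and -0.34 on its other probe set. Of the remaining fibrillar genes, Col5a3 differed by 0.12 and Col27a1 by -0.23. The cartilage fibril genes Col2a1, Col11a1 (other set -0.16) and Col11a2 differed by -1.62, 0.74 and -1.29, and Col24a1 by -0.95. Their intervals spanned from -3.61 to 0.37 for Col2a1 and from -3.84 to 1.94 for Col24a1, so no direction can be read from them.

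Type IV collagen showed values near 0 in the chains that form the mesh of most basement membranes, Col4a1 and Col4a2. Col4a2 read 0.00, -0.07, 0.15 and 0.17 in G1 and 0.30, -0.15, 0.00 and -0.21 in G0. The groups overlapped, with a difference of 0.08 (SE 0.21, 95% interval -0.40 to 0.56, limma, adjusted p = 0.980). Probe set 1452035_at of Col4a1 read 0.05, 0.14, 0.15 and -0.04 in G1 and -0.06, -0.07, -0.27 and 0.04 in G0, a difference of 0.17 (interval -0.27 to 0.62). The intervals of these probe sets overlapped those of Col3a1 (1427884_at, -1.21 to -0.23) and Col1a1 (1455494_at, -1.35 to -0.20). Differences between these genes were not tested.

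The other probe set of Col4a1, 1426348_at, read -0.14, -0.32, 0.01 and 1.59 in G1 and -0.01, 0.20, 0.98 and -0.07 in G0. The 2 high arrays were again those without spike-ins (1.35 above the rest, limma, adjusted p = 0.029). Its group difference was 0.01 on all arrays (interval -1.06 to 1.07, limma, adjusted p = 0.999). It was -0.19 on the 6 with spike-ins (adjusted p = 0.837), within a range of 0.701 to 0.99987 over all alternatives.

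Col4a1 and Col4a2 are transcribed away from each other from a shared promoter, which is why the window of Col4a1 is shown, with the bases it shares with the window of Col4a2 in capitals. It lies on the minus strand at chr8:11312777-11313076 of GRCm38.p6 (RefSeq).
Col4a1: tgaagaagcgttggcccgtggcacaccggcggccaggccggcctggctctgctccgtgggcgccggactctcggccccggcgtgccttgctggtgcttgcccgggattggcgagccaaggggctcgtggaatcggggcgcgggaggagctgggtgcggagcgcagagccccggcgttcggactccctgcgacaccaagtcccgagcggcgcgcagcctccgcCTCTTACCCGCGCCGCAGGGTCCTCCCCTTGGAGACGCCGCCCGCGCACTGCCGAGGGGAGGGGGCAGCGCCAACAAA
The windows share 78 bases, and the annotated starts of the genes lie 21 bases apart on opposite strands. Col4a1 starts at 11312826 and Col4a2 at 11312805, so the annotated 5′ ends of the 2 genes overlap. The Col4a1 window held GGGCGG and CCAAT matches on its opposite strand, at positions 9 and -145.

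The other type IV chains are found in the basement membranes of particular tissues. Col4a3 was among the genes at an unadjusted p under 0.05. Its probe set 1438779_at read -1.38, -0.25, -0.17 and 0.41 in G1 and -0.26, 1.39, 0.17 and 2.43 in G0, with overlapping groups. The difference was -1.28 (SE 0.48, 95% interval -2.40 to -0.16, limma, unadjusted p = 0.0302, adjusted p = 0.628). In the spike-in fit the interval was -2.91 to 0.34 (adjusted p = 0.551, within 0.336 to 0.873 over all alternatives), and between the arrays without spike-ins the difference was 0.23. Its other probe set differed by -0.89 (interval -1.96 to 0.19).

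Col4a5 and Col4a6, whose genes lie head to head on the X chromosome, differed by -0.33 and -0.53 on the probe sets that stand for them, and by -0.34 and -0.57 on their other sets. In the spike-in fit the interval of Col4a5 was -0.63 to -0.02 (limma, unadjusted p = 0.040, adjusted p = 0.416). On all arrays with the labelled batch it was -0.85 to 0.20. Col4a4 differed by -0.25, -0.26 and 0.73 on its probe sets, with intervals that all included 0.

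Among the other collagens, Col17a1 encodes a transmembrane collagen of the hemidesmosomes that anchor epithelial cells. Its only probe set read -0.35, -0.28, 0.01 and -0.61 in G1 and 0.84, 0.64, -0.01 and 0.84 in G0. The groups overlapped only between G1 replicate 3 and G0 replicate 3, at 0.01 and -0.01. The means were -0.31 ± 0.26 in G1 and 0.58 ± 0.40 in G0 (SD, n = 4 each), a difference of -0.89 or 1.85-fold lower in G1 (SE 0.27, 95% interval -1.53 to -0.24, limma, unadjusted p = 0.0136, adjusted p = 0.479). In the spike-in fit the adjusted p was 0.0731, and on the 6 arrays the difference was -0.98 (adjusted p = 0.229). Over all alternatives it ran from 0.0731 to 0.789. Within labelled batches 1 and 2 the difference was -0.70 and -1.45, and within the arrays with and without spike-ins -0.98 and -0.60. Of 8 markers of epithelium, 2 had a negative difference.

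Type VI collagen forms beaded filaments around cells. Col6a1 read -0.75, -0.10, -0.30 and 0.18 in G1 and -0.42, 0.59, 0.27 and 0.10 in G0, a difference of -0.38 (interval -1.10 to 0.34). Col6a2 read -0.84, 0.03, -0.25 and -0.02 in G1 and -0.60, 0.51, 0.19 and 0.02 in G0, a difference of -0.30 (interval -1.10 to 0.50). Col6a3 read -0.28, 0.07, 0.06 and -0.56 in G1 and -0.05, 0.35, -0.56 and 0.05 in G0, a difference of -0.12 (interval -0.81 to 0.56). In all 3 chains the groups overlapped. All 5 measured type VI genes had a negative difference, against 55.3% of all genes, with Col6a4 at -0.56 and Col6a5 at -1.32. Both had intervals from below -2 to above 0. Within labelled batches 1 and 2, 4 and 3 of the 5 were negative (all genes, 58.1% and 43.3%). Within the arrays with and without spike-ins 5 and 4 were (all genes, 55.9% and 51.1%).

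Col18a1 encodes a basement membrane collagen whose cleaved end is endostatin. Its probe set 1426955_at read 0.19, -0.05, -0.11 and -0.25 in G1 and 1.00, 0.84, -0.06 and 0.05 in G0. G0 replicates 1 and 2 stood above the rest, while G0 replicates 3 and 4 overlapped with G1. The difference was -0.51 (SE 0.29, interval -1.18 to 0.16, limma, adjusted p = 0.790), and -0.70 on its other set. Col15a1, its relative, differed by 0.19 (interval -1.90 to 2.28).

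Col12a1 encodes a collagen that binds to the surface of type I fibrils, and its 4 probe sets did not share a direction. Probe set 1434411_at read -1.74, -1.37, 0.81 and 0.85 in G1 and 1.74, -0.81, 1.32 and -1.47 in G0, a difference of -0.56 (interval -2.81 to 1.70). The quieter 1427391_a_at read 0.30, 0.65, -0.89 and 0.53 in G1 and -0.51, 0.18, -0.18 and -1.05 in G0, a difference of 0.54 (interval -0.50 to 1.57). Both pairs of groups overlapped. The remaining sets differed by 0.49 and 0.23.

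On the probe sets that stand for them, the other fibril-associated genes ran from -1.18 for Col9a3 to 0.98 for Col20a1. Of the 9 fibril-associated genes, Col12a1 included, 5 had a negative difference, or 55.6%, against 55.3% of all genes. The 4 with a positive one were Col14a1 (0.57), Col19a1 (0.33), Col20a1 and Col22a1 (0.86). The intervals of these 4 genes all included 0, and Col9a1 stood at -0.02. Probe sets of a gene did not share a direction here either. The lowest were -0.44 for Col14a1, -0.58 for Col19a1 and -0.03 for Col22a1, and the highest of Col9a3 was 0.27. Col16a1 was the one with the least spread within groups (SD 0.15) and differed by -0.13 (interval -0.58 to 0.33). Col9a2, a cartilage collagen, had 2.40 on G1 replicate 4 and 2.63 on G0 replicate 3, against -1.04 to -0.83 on the other G1 arrays and -0.05 to 0.13 on the other G0 arrays. It differed by -0.79 in limma with the labelled batch (adjusted p = 0.933) and by -0.99 on the 6 arrays (adjusted p = 0.544). Its interval was -1.24 to -0.35 in the spike-in fit (limma, unadjusted p = 0.0041, adjusted p = 0.177). The short-chain network genes Col8a1, Col8a2 and Col10a1 differed by -0.13, -0.03 and -0.28. Col7a1, the collagen of anchoring fibrils, differed by -0.22. The transmembrane collagens Col13a1, Col23a1 and Col25a1 differed by -0.12, -1.31 and -0.18, and Col26a1 by -0.99. The sets of Col23a1 ran from -1.31 to 0.68. None of these genes passed the test.

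By class, the median log2 difference was -0.49 over 11 fibrillar genes, -0.29 over 6 basement membrane genes and -0.22 over 25 other genes, against -0.06 over all genes. Negative differences were found in 9 of 11, 4 of 6 and 20 of 25 genes. The fibrillar median per array was -0.47, -0.08, -0.13 and 0.06 in G1 and 0.50, 0.22, -0.02 and -0.03 in G0, so the groups overlapped. The basement membrane medians (-0.29 to 0.29 in G1, -0.10 to 0.31 in G0) and those of the others (-0.35 to 0.30 in G1, -0.01 to 0.30 in G0) overlapped too. In each class the highest G1 median was that of replicate 4, an array without spike-ins. The medians were -0.61, -0.45 and -0.35 on the arrays with spike-ins (all genes, -0.07), and -0.04, 0.20 and 0.00 between the arrays without them (all genes, -0.02). Within labelled batch 1 they were -0.43, -0.52 and -0.41, and within labelled batch 2 they were 0.15, 0.28 and 0.15. Differences between the classes were not tested.

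**Figure D3:**
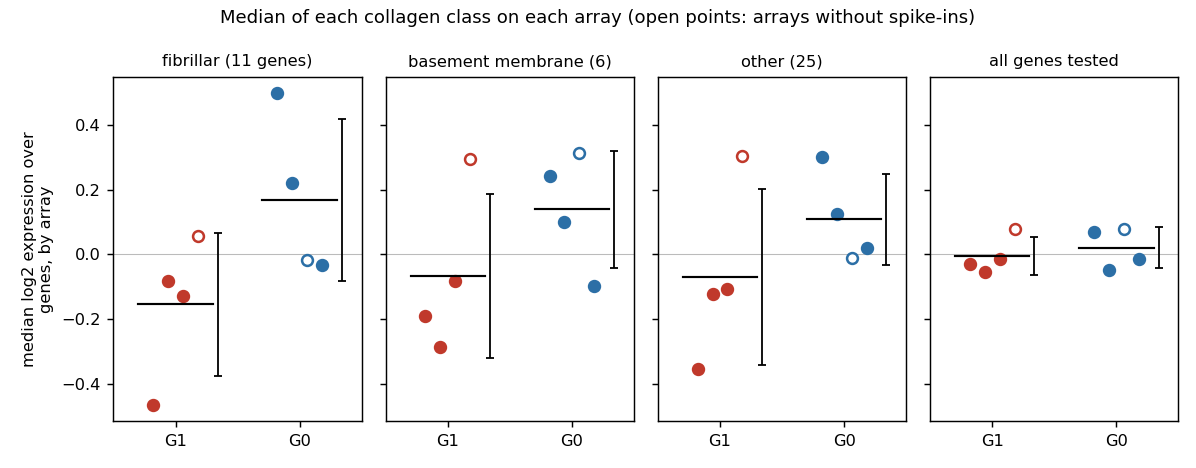
Median log2 expression over the genes of each collagen class and over all genes tested (vertical axis) on each G1 and each G0 array, with the mean as a line, the SD as a bar and open points for the arrays without spike-ins. In the fibrillar panel G1 runs from -0.47 to 0.06 and G0 from -0.03 to 0.50.

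Collagen probe sets differed widely in their spread within groups. The SD within groups over the collagen probe sets ran from 0.11 for Col4a1 (1452035_at) to 2.28 for Col12a1 (1445751_at), with a median of 0.85 against 0.70 for all probe sets. By genes, the median SD was 0.60 in the fibrillar, 0.81 in the basement membrane and 0.86 in the other class. Of the 36 collagen probe sets quieter than the median of all probe sets, 29 had a negative difference, or 80.6%, against 57.1% of all probe sets that quiet, with medians of -0.17 and -0.06. Of 27 genes with several probe sets, 18 carried 1 sign on every set, 16 negative and 2 positive, and 9 had mixed signs. Probe sets of a gene read the same RNA on the same arrays. The share over all genes with several probe sets was not computed, so this count is a description only.

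Between the arrays without and with spike-ins 5 collagen probe sets differed past the threshold. With group in the model, 5 of 82 were higher on the arrays without spike-ins at an adjusted p under 0.05 in limma, against 3.94% of all probe sets. They belong to Col9a2 (log2 difference 2.97), Col1a1 (2.82), Col25a1 (2.21), Col4a6 (1.66) and Col4a1 (1.35). The count lower on those arrays was 0, against 0.808%. Probe sets of a gene could differ in this respect. The sets of Col1a1 stood at 2.82 and -0.55, those of Col4a1 at 1.35 and -0.20, and those of Col8a1 at 1.09, -0.50 and -0.85.

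**Figure D4:**
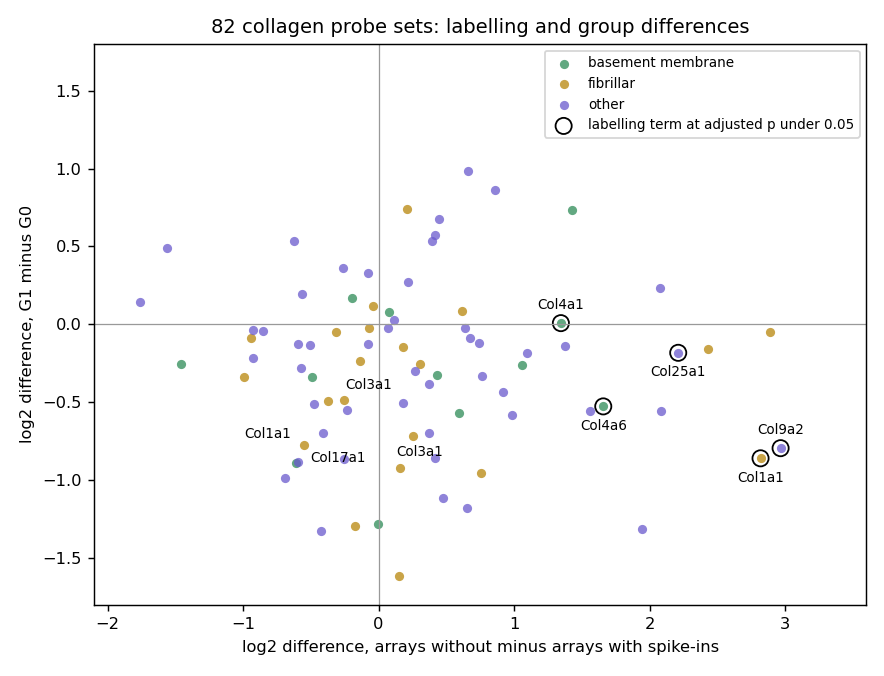
Each of 82 collagen probe sets by its log2 difference between arrays without and with spike-ins (horizontal axis) and its log2 difference G1 minus G0 (vertical axis), coloured by class. The 5 circled probe sets, at 1.35 to 2.97 on the horizontal axis, passed the threshold for this batch term, and none passed it for group.

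Genes that act on collagen were followed in 6 lists with 57 measured genes. None passed the test with either batch covariate, and 1 did on the 6 arrays with spike-ins, against 0.17% of all genes. At an unadjusted p under 0.05 in limma with the labelled batch, 3 were lower in G1, or 5.26% against 3.74% of all genes, and 1 was higher, or 1.75% against 4.33%. In the list of proline and lysine modification 12 of 14 genes had a negative difference (median -0.28). In that of procollagen folding and export 9 of 9 did (median -0.24), against 55.3% of all genes. Within labelled batch 2 both medians were 0.12, against 0.15 for all genes. Negative differences made up 1 of 6 for propeptide cleavage (median 0.46), 4 of 5 for cross-linking (-0.22) and 7 of 9 for the collagen receptors (-0.16). Among the basement membrane partners, which are laminins, nidogens, perlecan and agrin, they made up 9 of 14 (-0.10). The median over all genes was -0.06.

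The gene that passed on the 6 arrays was Tll1, a protease of the family that cleaves procollagen ends. It read 1.48, 2.36, 2.70 and -2.13 in G1 and -1.81, -1.48, 1.76 and -1.52 in G0. On the 6 arrays all G1 values lay above all G0 values, with a difference of 3.78 (limma, adjusted p = 0.0433). The arrays without spike-ins, G1 replicate 4 and G0 replicate 3, had the opposite order. Over all 8 arrays the difference was 1.86 (SE 0.94, 95% interval -0.35 to 4.07, limma, adjusted p = 0.762, and 0.658 in the spike-in fit).

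Fkbp14, a prolyl isomerase of the endoplasmic reticulum that helps fold type III collagen among others, read -0.61, -0.26, -0.30 and -0.41 in G1 and 0.98, 0.48, 0.61 and 0.26 in G0. All G1 arrays lay below all G0 arrays, with a difference of -0.98 (SE 0.22, 95% interval -1.48 to -0.47, limma, unadjusted p = 0.0025, adjusted p = 0.226, and 0.116 in the spike-in fit). Sec23a, a coat protein of the vesicles that export procollagen, read -0.32, -0.12, -0.34 and -0.34 in G1 and 0.40, 0.39, 0.61 and 0.12 in G0. The groups did not overlap, with a difference of -0.66 (SE 0.19, limma, adjusted p = 0.404, and 0.164 in the spike-in fit). Plod1, a lysyl hydroxylase of collagen, read -0.69, -0.64, -0.28 and 0.07 in G1 and 0.15, -0.07, 0.73 and 0.27 in G0. Its groups overlapped only through G1 replicate 4 and G0 replicate 2. The difference was -0.65 (SE 0.27, limma, adjusted p = 0.679, and 0.218 in the spike-in fit). Pcolce2, which enhances cleavage of the procollagen end, read 1.29, -0.09, 0.73 and 0.09 in G1 and 0.58, -0.88, -1.11 and -1.32 in G0. It overlapped only through G0 replicate 1, with a difference of 1.19 (SE 0.47, limma, adjusted p = 0.656, and 0.431 in the spike-in fit). The chaperone Serpinh1 (HSP47) differed by -0.18, the cross-linking enzyme Lox by -0.22 and the receptor subunit Itgb1 by 0.00.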

How the data were processed

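RNA of 8 samples of sorted NIH3T3 cells, 4 G1 and 4 G0, was measured on Affymetrix mouse arrays and grouped by the titles. The values deposited are log2 expression, and the submitters' processing notes name MAS5. The values themselves show that each probe set was centred on its median over the 8 arrays (largest absolute median 5e-07). For that step and the log base the sources used here give nothing. No further scaling or filter was applied. Symbols were updated by Entrez identifier from the GRCm38.p6 gene table.

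Differences, G1 minus G0, were fitted by lmFit and eBayes with trend (limma 3.58.1, R 4.3.3), two-sided, with the labelled batch as covariate (5 residual degrees of freedom). Benjamini-Hochberg adjustment ran over 45037 probe sets, with 64 control probe sets left out. The threshold was 0.05. A gene was represented by 1 probe set, an _at set before _a_at, _s_at or _x_at and, among equals, the lowest-numbered. The fit was also run on simulated arrays with independent noise, the spread of each probe set and known changes. Those arrays held no labelling effect shared between arrays, so they cannot show how the fit deals with one. Array values are given for the chains of types I, III, XII and XVIII, and for Col4a1, Col4a2, Col5a1, Col5a2, Col6a1, Col6a2 and Col6a3. They are also given for each collagen at an unadjusted p under 0.05, and of other genes those at that p are named. Exceptions, chosen after their values were seen, are Col9a2, Col20a1, Tll1 and the genes named with a difference alone. The members and lists were chosen with earlier results of these data known. The small number of arrays limits precision.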

Additional observations from a re-analysis of the deposited data

Results flagged for a closer look

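Of 170 groups of 4 arrays examined among all collagen probe sets and the class medians, 10 held an array far from the other 3, where chance flags about 1 in 20. Of these 10 outlying values 5 came from the 2 arrays without spike-ins. In G1 replicate 4, Col9a2 read 2.40 against -1.04 to -0.83 on the other G1 arrays, Col25a1 (1421427_at) 2.07 against -0.61 to -0.25, and Col8a1 (1418441_at) 1.11 against -0.36 to -0.17. In G0 replicate 3, Col9a2 read 2.63 against -0.05 to 0.13 on the other G0 arrays, and Col1a1 (1423669_at) 2.59 against -0.04 to 0.22. For this Col1a1 probe set the difference was -1.01 on the 6 arrays with spike-ins and -0.86 on all 8.

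The other 5 values came from arrays with spike-ins. The second probe set of Col25a1, 1438540_at, read -3.10 on G1 replicate 3 against -0.34 to 0.21 on the other G1 arrays. On G0 replicate 1, Col11a1 (1418599_at) read -1.94 against -0.09 to 0.02 on the other G0 arrays, and Col27a1 (1429549_at) 0.71 against -0.02 to 0.07. On G0 replicate 2, Col22a1 (1429280_at) read 0.56 against -0.31 to -0.21, and Col9a3 (1420280_x_at) -3.56 against 0.00 to 0.19.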

How the results depend on the processing

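The count of collagen probe sets past the threshold was 0 under all 20 alternatives. None of the 15 probe sets and genes followed singly passed, with a lowest adjusted p of 0.0731 (limma, Col17a1 with the spike-in batch as covariate). Their sign was kept in 277 of 298 comparisons, and 10 of the 15 kept it throughout. The count of genes lower at an unadjusted p under 0.05, 3 in the fit with the labelled batch, was 6 with the spike-in batch as covariate, 7 on the 6 arrays with spike-ins, 5 with array weights and 2 to 5 with single arrays left out. The count higher, 0 there, was 1 without a batch term, with the spike-in batch, with arrays centred on their medians and with quantile normalization, and 0 to 1 with single arrays left out. With the replicate number as a block in place of the batch, 4 genes were lower and 1 higher. Shares of all genes were computed only for the fits with either batch covariate and for the 6 arrays. The other counts have no share beside them and are descriptions only. Across probe sets, which are not independent, the deviations of arrays from their group means correlated at -0.14 to 0.11 between arrays of the same number. G1 replicates 1 and 2 correlated best with their own numbers, G1 replicate 3 with G0 replicate 4 (r = 0.10) and G1 replicate 4 with G0 replicate 3 (r = 0.31), so the numbers were not taken as pairs. The median difference of basement membrane genes was -0.52 in labelling batch 1 only and -0.52 to -0.11 with single arrays left out, that of fibrillar genes -0.54 to -0.28 and that of other genes -0.41 to -0.13. When a replicate 4 is left out, the remaining one is taken up by the batch term, so those fits give the same differences as labelling batch 1 only, with other p-values. Signs turned in 5 genes. Col4a1 gave -0.19 on the 6 arrays, -0.54 in labelling batch 1, -0.0086 with quantile normalization, -0.051 with array weights and -0.54 to 0.31 with single arrays left out. Col4a2 gave -0.021 in labelling batch 1 and -0.021 to 0.18 with single arrays left out. Col5a2 gave 0.29 and -0.36 to 0.29 in these fits, and Col6a3 gave 0.040 and -0.32 to 0.040. Col12a1, at -0.56 with the probe set that stands for it, gave 0.17 with the mean of its probe sets and 0.54 with its quietest. Causes of these shifts were not tested. Without levels, dim probe sets could not be recognised.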

Other observations

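The collagens of cartilage and the markers of cartilage cells were set side by side after their values were seen, so no test is given. Col2a1, Col9a1, Col9a2, Col9a3, Col10a1, Col11a1 and Col11a2 differed between G1 and G0 by -1.62, -0.02, -0.79, -1.18, -0.28, 0.74 and -1.29. Another set of Col9a3 and the other set of Col11a1 had the opposite sign, at 0.27 and -0.16. Of 8 cartilage markers 3 had a negative difference. Hapln1, which links hyaluronan to proteoglycans, read 1.60, 0.01, 3.26 and 1.59 in G1 and -0.01, -0.81, -1.61 and -0.24 in G0, a difference of 2.28 (limma, adjusted p = 0.539). Cnmd, which encodes the cartilage protein chondromodulin, differed by -2.08 (limma, adjusted p = 0.585). Hapln1 and Cnmd thus lay on opposite sides of 0, and neither passed the test.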
